A study of Equus caballus with 25 samples.

Results

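Endometrium from the day of ovulation was compared with endometrium from early oestrus in the same 5 mares. The comparison used the 5 arrays titled as day 0 and the 5 titled as day 16, which are 10 of the 25 arrays of the study, and an equal replicate number marked the same mare. The study followed messenger RNA in equine endometrium through the oestrous cycle, at days 0, 3, 8, 12 and 16, with 1 single-colour Agilent array for each mare and day. The animals were normally cycling, untreated Bavarian Warmblood mares, and their age is not in the labels. Tissue was taken by transcervical biopsy, so each array holds a mixture of epithelium, stroma, vessels and resident blood cells. Day 0 was the day of ovulation as found by palpation and ultrasound, and its samples are labelled as taken shortly after it. Day 16 is labelled as the beginning of the ovulatory phase, when the luteal phase has ended and the next ovulation lies ahead. Biopsies came from different cycles, and a pair taken within the same cycle was kept apart by a set interval, so the day 16 and day 0 samples of a mare need not be neighbours in time.

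In oestrus the follicle secretes oestrogen while progesterone from the regressed corpus luteum is low, and the equine endometrium becomes oedematous. Progesterone, which returns after ovulation, drives the glands to secrete proteins such as uterocalin that nourish an early conceptus. Both days compared here are labelled as oestrus, the earlier stage before the egg is released and the later one just after it.

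Levels are given as log2 of the array signal minus the 75th percentile of that array, so a level of 0 is the upper quartile of its array and a difference of 1 is a doubling. Differences are day 0 minus day 16, with the standard error of a limma model that held all 25 arrays and the mare as a block, and p-values were adjusted by Benjamini-Hochberg over 35771 tested probes. A gene was called where its adjusted p was under 0.05. A gene name could be attached only to probes with a RefSeq accession, which gave 513 named and tested genes, each represented by its brightest probe. Levels of different genes cannot be ranked against each other, because probes differ in how strongly they bind.

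In this comparison 34 of the 513 named genes were higher at day 0 and 24 were lower, which is 6.63% and 4.68% of them. In either direction 11.3% of the named genes were called, and the counts for short lists below are to be read beside that share. Among all tested probes 3.55% were higher and 3.2% lower, 1270 and 1146 probes, together 6.75%. A difference of at least 2-fold was reached by 16 of the 34 higher and 16 of the 24 lower genes. All 5 mares went the same way in 25 of the 34 and in 17 of the 24. The 5 arrays of one day lay entirely above the 5 of the other in 8 of the higher and 10 of the lower genes, against 3.49% of all tested probes in either direction. These genes were called on the same arrays, so a larger share than over all probes follows from the calling and is not a separate result. In biopsies of whole tissue, fewer cells of a type and less RNA per cell cannot be told apart.

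The calls are easily lost, and the array brightness differed between the days. The 75th percentile of the signal in mares 1 to 5 was 1556, 698, 895, 866 and 1498 at day 0, and 875, 2789, 1941, 3701 and 2001 at day 16. The day 0 array was thus the dimmer of the pair in mares 2 to 5 and the brighter in mare 1. With brightness as a covariate 33 probes and 1 named gene were called, with the slide as a term beside the mare 152 probes and 6 named genes (4 of the 58), and from the 10 arrays alone 35 probes and 1 named gene. Without mare 2, 167 probes and 3 named genes passed, CHGA, GM2A and VEGFA, so each of the other 55 calls ended with that mare left out. Without mare 1, 4602 probes passed. Without the mare block 39 of the 58 genes kept their call. All 58 genes kept their direction in each of these fits, and the part of brightness in the differences was not tested.

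**Figure D1:**
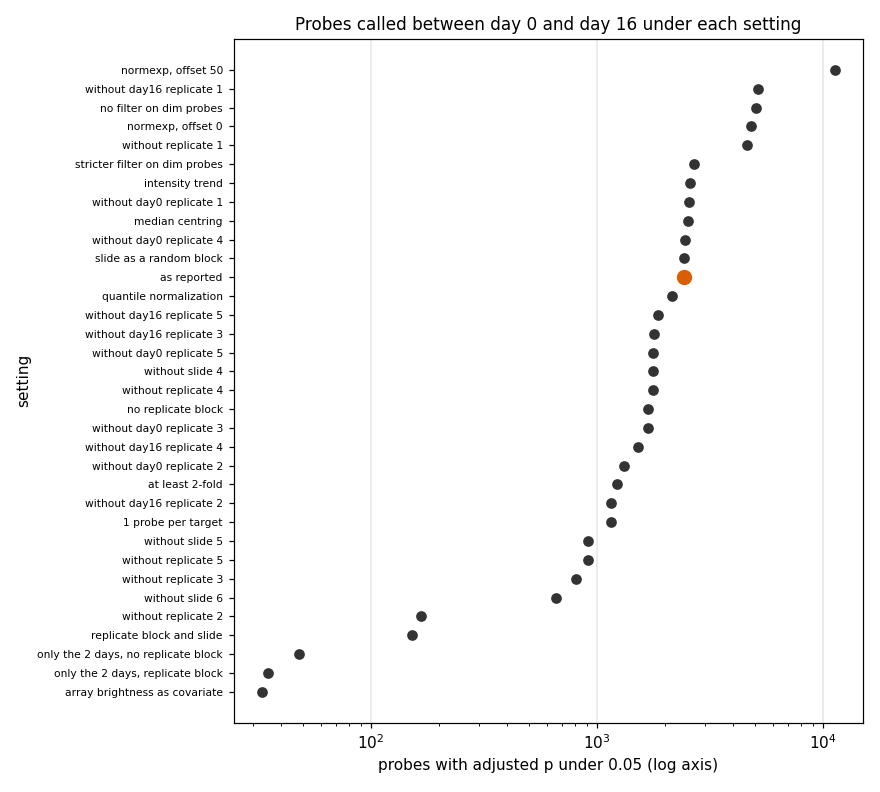
Number of probes with an adjusted p under 0.05 between day 0 and day 16 (log axis) under each way of processing or fitting the data, 1 point for each. The count as reported is 2416, and it ranged from 33 with array brightness as a covariate to 11256 with normexp background correction at an offset of 50.

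Scaling also moved the balance of directions. Higher calls made up 52.6% of the total as reported and 40.5% after quantile normalization, where 2147 probes were called and 869 of these were higher. Normexp background correction with an offset of 50 called 11256 probes, of which 9839 were higher, and it moved the median difference of all probes from 0.07 to 0.27. An offset of 0 gave 4785 calls with 3595 higher, and dropping the filter on dim probes gave 5037 with 3625 higher. With all probes split into 5 equal classes by mean level, 4 of the 15 higher genes in the brightest class were still called after quantile normalization, against 16 of the 19 higher genes elsewhere. For lower genes these numbers were 7 of 7 and 14 of 17.

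The largest difference of any named gene was that of CHGA (NM_001081814), chromogranin A, a protein of the secretory granules of endocrine and neuroendocrine cells. At day 0 its level in mares 1 to 5 was -5.89, -3.46, -3.92, -5.33 and -4.89. At day 16 it was -0.25, 3.07, 4.10, 1.38 and 3.1. Every day 16 array lay far above every day 0 array, and mare 1 had the lowest level on both days. The fitted difference was -6.98 ± 0.86 (SE, n = 5 mares), a 126-fold lower signal at day 0 (limma adjusted p = 0.000305). All of its other 4 probes were called in the same direction. The difference of CHGA was called in each of the 14 other settings and in each of the 15 fits with a mare or an array left out, between -7.71 and -6.43 in the latter. It was -6.70 with brightness as a covariate (adjusted p = 0.0384) and -6.65 with the slide as a term (0.0285). In mare 1, whose day 0 array was the brighter, it was -5.64. Its mean was -7.72 ± 0.38 (SD) at day 3, -6.79 ± 1.25 at day 8 and -1.52 ± 2.45 at day 12, so that day 16 held the highest mean of the cycle and day 3 the lowest.

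**Figure D2:**
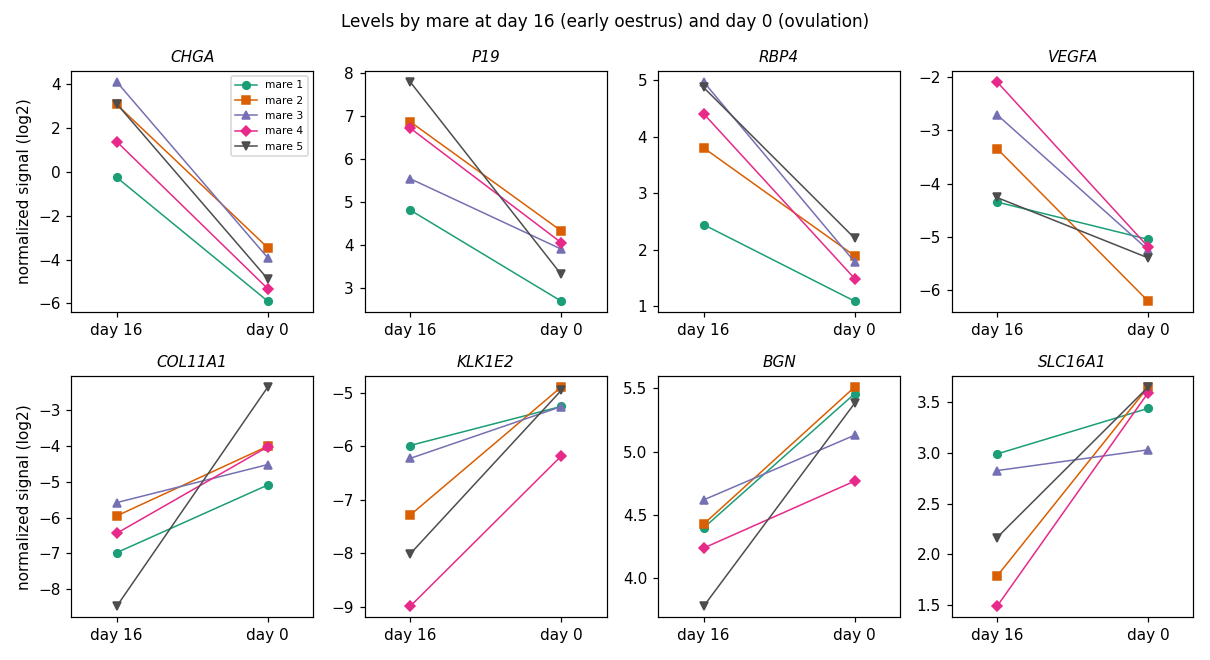
Normalized log2 signal of 8 genes at day 16 and day 0, with a line for each of the 5 mares and its own scale for each gene. All lines fall for CHGA, P19, RBP4 and VEGFA and rise for COL11A1, KLK1E2, BGN and SLC16A1, and the lines of mare 1 are flatter than most for VEGFA and SLC16A1.

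Of the 26 lists, that of uterine secretory proteins held the most lower genes. It was also the list with the most tested genes. Its members were chosen with earlier results of these data known, so the count is a description. Of 15 tested members of that list 5 were lower at day 0 (P19, RBP4, GM2A, GPX3 and TIMP1), 2 were higher (KLK1 and KLK1E2) and 8 did not pass. Among all named genes 4.68% were lower and 6.63% higher. The median difference of the list was -0.29, beside 0.09 over all named genes. P19 encodes uterocalin, a lipid-carrying lipocalin secreted by the equine glands under progesterone. Its day 0 levels were 2.69, 4.33, 3.90, 4.05 and 3.31 in mares 1 to 5, and its day 16 levels 4.81, 6.87, 5.54, 6.73 and 7.80. The ranges did not overlap, and mare 1 was again lowest on both days while mare 5 fell most. P19 was lower by a fitted -2.70 ± 0.48 (adjusted p = 0.00341), with -2.13 in mare 1. Its mean was 5.54 ± 1.25 (SD) at day 3, 7.74 ± 0.17 at day 8 and 7.49 ± 0.27 at day 12, so the day 16 mean of 6.35 ± 1.18 lay below those of days 8 and 12 and above those of days 0 and 3, and the mares were spread further apart on that day than at days 8 and 12.

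RBP4, the plasma and uterine carrier of retinol, had day 0 levels of 1.09, 1.89, 1.79, 1.49 and 2.21 and day 16 levels of 2.45, 3.81, 4.97, 4.41 and 4.87. Each mare was lower at day 0, and the lowest day 16 array, that of mare 1, still exceeded the highest day 0 array. The difference of RBP4 was -2.41 ± 0.48 (adjusted p = 0.00564), and its other 3 probes were all called lower. Unlike P19, RBP4 was also low at day 8 (0.91 ± 0.65) and reached 3.83 ± 0.94 only at day 12.

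GM2A, the activator protein that presents gangliosides to lysosomal hexosaminidase, stood at -1.04, -1.13, -0.66, -1.64 and -1.29 at day 0. At day 16 it stood at 0.23, 0.68, 0.03, 0.89 and 1.25, with no overlap and with mare 3 changing least. The difference of -1.77 ± 0.27 (adjusted p = 0.00116) was also called with the slide as a term (-2.15, adjusted p = 0.0345) and without mare 2 (-1.76, adjusted p = 0.037), and it was not with brightness as a covariate (-1.46, adjusted p = 0.108). GPX3, the secreted glutathione peroxidase, was lower by -1.66 ± 0.37 (adjusted p = 0.0102) in 4 of 5 mares, with 0.28 in mare 1, and its other 5 probes were all called lower. TIMP1, an inhibitor of matrix metalloproteinases, was lower by -1.06 ± 0.31 (adjusted p = 0.0468) in 4 of 5 mares. Its level was near 1 at days 3, 8 and 12 (means of 0.76, 0.71 and 0.88) and highest at day 16 (2.47 ± 0.98). With brightness as a covariate the difference of TIMP1 shrank to -0.32 (adjusted p = 0.799).

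Of the 8 secretory genes that did not pass, CLU differed by 0.47, PTGDS by 0.48 and DCN by 0.38. B2M differed by -0.36, TF by -0.03 and FTL by 0.09, and LGB1 was well above background on 0 of 5 day 0 and 1 of 5 day 16 arrays, so no difference is given for it. The acute-phase protein SAA had a large difference of -3.22 with all 5 mares lower and an adjusted p of 0.123, with an SD between mares of 3.68 at day 16. IL1RN, the interleukin-1 receptor antagonist, likewise had -3.26 with all 5 mares lower (adjusted p = 0.0589) and an SD of 3.64 at day 16.

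**Figure D3:**
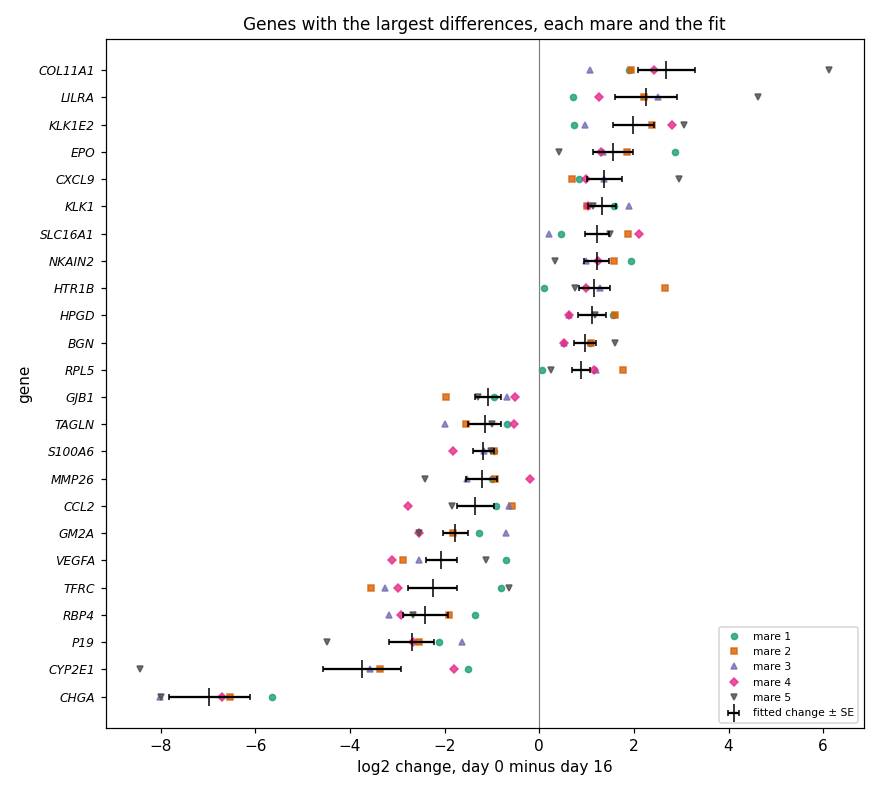
Log2 difference, day 0 minus day 16, in each of the 5 mares (symbols) and from the fit (bar, ± SE) for the 12 genes with the largest rise and the 12 with the largest fall among those called with all 5 mares in the same direction. CHGA at -6.98 stands far to the left of CYP2E1 at -3.74, and COL11A1 at 2.69 is the furthest right.

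VEGFA, the main growth factor for blood vessels and a cause of vascular leakage, was lower at day 0. Of 8 genes on the list for vessel growth and tone it alone was called, beside 11.3% of all named genes. Its level at day 0 was -5.05, -6.21, -5.25, -5.19 and -5.40, and 4 of these 5 arrays were well above background. At day 16 it was -4.35, -3.34, -2.70, -2.09 and -4.26. The groups were apart, and mares 1 and 5 changed least. The -6.21 of mare 2 lay below the lowest level counted as well above background on its array (-5.79), so the size of that fall is uncertain. The difference was -2.07 ± 0.32 (adjusted p = 0.00151), and the other 9 probes of VEGFA were all called lower. It kept its call in all 15 fits with a mare or an array left out, and shrank to -1.22 with brightness as a covariate (adjusted p = 0.11). VEGFA was called in 10 of the 14 other settings, where its difference lay between -2.16 and -0.71. Mean levels climbed through the cycle, with -4.77, -4.14, -3.85 and -3.35 from day 3 onward.

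TFRC, the transferrin receptor through which cells take up iron, was lower at day 0 by -2.25 ± 0.52 (adjusted p = 0.0127). It was -1.24 with brightness as a covariate (adjusted p = 0.525) and -0.32 with normexp at an offset of 50 (adjusted p = 0.297). Its day 0 levels were -6.18, -7.94, -6.61, -6.13 and -5.87, and those of day 16 -5.36, -4.39, -3.36, -3.15 and -5.23. TFRC was well above background on 4 of 5 day 0 arrays. The -7.94 of mare 2 lay below the lowest level counted as well above background on its array (-5.79). As for VEGFA, mares 1 and 5 changed least, by -0.82 and -0.65, and mares 2, 3 and 4 changed most, the mares whose arrays differed most in brightness. None of the other 4 tested genes of iron uptake, transport and storage was called: TF and FTL lay within 0.1 of no difference, SLC11A1 at -0.37 and IREB2 at -0.60.

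Of 13 tested genes of steroid and sterol metabolism 2 were lower, CYP2E1 and CYP3A89, beside 4.68% lower among all named genes. CYP2E1, a cytochrome P450 of xenobiotic metabolism, had day 0 levels of -5.75, -5.11, -5.00, -5.10 and -7.23 and day 16 levels of -4.24, -1.73, -1.43, -3.29 and 1.2. The difference was -3.74 ± 0.82 (adjusted p = 0.00984), and mare 5 alone fell by 8.44. CYP2E1 was well above background on 4 of 5 day 0 arrays. The -7.23 of mare 5 lay below the lowest level counted as well above background on its array (-6.69), so the size of that fall is uncertain. CYP3A89, a cytochrome P450 of the family that hydroxylates steroids and drugs, differed by -1.58 ± 0.46 (adjusted p = 0.0457) in 4 of 5 mares. The call was lost by quantile normalization (adjusted p = 0.0814), and its difference was -0.25 with normexp at an offset of 50 and -0.70 with brightness as a covariate (adjusted p = 0.746). Its day 16 mean of -4.72 ± 1.32 was already far below those of day 8 (-0.24) and day 12 (-0.63). The other 11 genes did not pass, among them STAR at -0.20, CYP11A1 at 0.98, HSD17B1 at 0.78, HSD11B2 at 0.88 and SULT1E1 at 0.90.

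SOD1, the cytosolic superoxide dismutase, had day 0 levels of 3.24, 3.68, 3.57, 3.83 and 3.81 and day 16 levels of 4.30, 4.76, 4.48, 4.77 and 4.41. The groups were apart, and the mares were close to each other, with differences between -1.08 and -0.60. The fitted value of SOD1 was -0.92 ± 0.18 (adjusted p = 0.00518). It and GPX3 were the called members among 7 genes of oxidative and heat stress, beside 11.3% called among all named genes. SOD2 had -0.77 and TXNRD1 -0.59 without passing, and the heat-shock protein genes HSPA8 (0.44) and HSP90AB1 (0.55) lay on the other side.

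Among the remaining lower genes, DEFB4B, a beta-defensin, had the second largest difference, -5.00 ± 1.18 (adjusted p = 0.0151). Its day 0 levels were -5.29, -8.05, -7.21, -5.95 and -5.32, with 3 of the 5 arrays well above background. Its day 16 levels were -5.50, -2.13, -1.59, 2.88 and -0.50, so mare 1 was as low at day 16 as at day 0, and mare 4 was the highest. At day 0 the levels of mares 2 and 3 lay below the lowest level counted as well above background on their arrays (-5.79 and -6.82). The size of the fall is thus uncertain. The difference became -2.80 with brightness as a covariate (adjusted p = 0.544). DEFB4B was the only called gene of 11 on the list of innate defence, beside 11.3% called among all named genes. ECATH-3, a cathelicidin not on this list, was higher by 0.94 ± 0.25 in 4 of 5 mares (adjusted p = 0.0268). Its other 2 probes were also called higher, and its call was lost after quantile normalization.

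CCL2, a chemokine for monocytes, was lower by -1.35 ± 0.39 (adjusted p = 0.0423) in all 5 mares, and was not called after quantile normalization (adjusted p = 0.0616) or median centring (0.0556). Its other 5 probes went the same way with 2 called, and the mean over its probes was not called. MMP26, a matrix metalloproteinase of epithelia, was lower by -1.22 ± 0.33 (adjusted p = 0.0318), and S100A6, a calcium-binding protein, by -1.18 ± 0.22 (adjusted p = 0.00443) with its other 4 probes all called. GJB1, the gap junction protein connexin 32 of epithelia, was lower by -1.08 ± 0.27 (adjusted p = 0.0215). It was the only called gene of 11 for adhesion and junctions. CPT1A, which passes long-chain fatty acids into mitochondria, was lower by -0.97 ± 0.27 (adjusted p = 0.0351) in 4 of 5 mares, the only called gene of 3 for lipid handling. With brightness as a covariate it was -0.38 (adjusted p = 0.743).

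Of 12 tested genes of the extracellular matrix, 4 were higher at day 0, none was lower and 8 did not pass, with a median difference of 0.55. Among all named genes 6.63% were higher and 4.68% lower. COL11A1, a chain of a minor fibrillar collagen, had day 0 levels of -5.09, -4.01, -4.52, -4.02 and -2.35 and day 16 levels of -6.98, -5.95, -5.58, -6.44 and -8.48. The groups did not overlap, and mare 5 had both the highest day 0 and the lowest day 16 level. COL11A1 was well above background on 4 of 5 day 16 arrays. The -8.48 of mare 5 lay below the lowest level counted as well above background on its array (-6.94), so the size of its rise is uncertain. The difference was 2.69 ± 0.60 (adjusted p = 0.0107), and its second probe went the same way without passing.

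BGN, the small leucine-rich proteoglycan biglycan, had day 0 levels of 5.46, 5.51, 5.13, 4.77 and 5.38 and day 16 levels of 4.40, 4.43, 4.62, 4.24 and 3.77. The groups were apart, and the difference was 0.96 ± 0.23 (adjusted p = 0.0153). Day 0 held the highest mean of BGN in the cycle, the other days lying between 4.03 and 4.40. After quantile normalization it was 0.77 (adjusted p = 0.0501).

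For the other called matrix genes the probes of a gene differed among themselves. FMOD, the related proteoglycan fibromodulin, was higher by 0.63 ± 0.16 (adjusted p = 0.0197), and 4 of its other 6 probes went the same way with 1 called. The mean over its probes gave 0.21 (adjusted p = 0.559). SPARC, a collagen-binding glycoprotein, was higher by 0.62 ± 0.15 (adjusted p = 0.0205), while only 2 of its other 7 probes went the same way and 0 were called. Its mean over probes gave 0.11 (adjusted p = 0.797), quantile normalization 0.25 (adjusted p = 0.426). Of the matrix genes that did not pass, COL2A1 differed by 1.32 (adjusted p = 0.0676), CLEC3A by 1.46, LUM by 0.48, COMP by -0.85 and COL5A2 by 0.09.

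Of 8 tested genes on the list of matrix proteases and inhibitors 3 were higher (MMP9, KLK1 and KLK1E2), 1 was lower (TIMP1) and 4 did not pass. Among all named genes 6.63% were higher and 4.68% lower. The matrix metalloproteinase MMP26, which was lower (-1.22), was not on this list. MMP9, a gelatinase carried largely by leukocytes, had day 0 levels of -3.37, -2.21, -2.59, -4.16 and -1.81 and day 16 levels of -4.91, -4.63, -4.91, -3.34 and -5.27. It was higher in 4 mares, and mare 4 went the opposite way by -0.83. The fitted difference was 1.78 ± 0.45 (adjusted p = 0.023), and its mean at day 0 was the highest of the cycle, with the lowest at day 8 (-5.61 ± 0.51).

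KLK1, tissue kallikrein, the protease that releases kinins, was higher by 1.33 ± 0.30 (adjusted p = 0.0115), with differences between 1.02 and 1.89 in the 5 mares. Its close relative KLK1E2, an equine kallikrein, was higher by 1.99 ± 0.44 (adjusted p = 0.00992), or 1.23 with brightness as a covariate (adjusted p = 0.445). The day 0 levels of KLK1E2 were -5.26, -4.89, -5.26, -6.18 and -4.96, and those of day 16 -5.99, -7.29, -6.23, -8.99 and -8.01, where 3 of 5 arrays were well above background. The -8.01 of mare 5 lay below the lowest level counted as well above background on its array (-6.94), so the size of that rise is uncertain. Mare 4 was lowest on both days for each kallikrein. Both are members of a family of similar genes, so signal from a near copy on either probe was not tested. MMP3, stromelysin, had -4.37, -3.89, -4.43, -0.62 and -4.02 at day 0 and -3.66, -4.95, -4.95, -5.02 and -6.62 at day 16. Mare 4 stood alone at day 0, and the difference of 1.57 ± 0.67 did not pass (adjusted p = 0.165). Its means were -3.47 at day 0 and -5.04 at day 16, against -8.50, -9.30 and -9.06 at days 3, 8 and 12, where its probe was well above background on 0, 0 and 1 of 5 arrays.

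**Figure D4:**
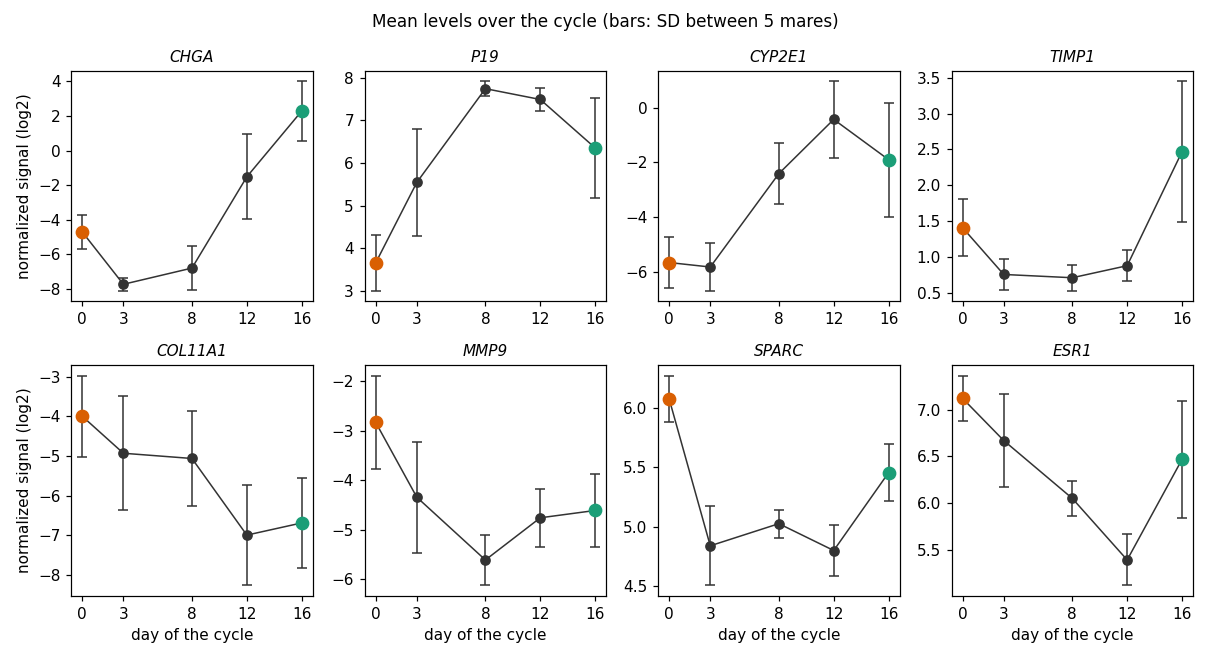
Mean normalized log2 signal of 8 genes at days 0, 3, 8, 12 and 16 (bars, SD between 5 mares), with day 0 and day 16 in colour and its own scale for each gene. TIMP1 and CHGA are highest at day 16, P19 at day 8, CYP2E1 at day 12, and COL11A1, MMP9, SPARC and ESR1 at day 0.

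Of the higher genes outside the matrix, SLC16A1, the monocarboxylate carrier for lactate, had day 0 levels of 3.44, 3.65, 3.03, 3.60 and 3.65 and day 16 levels of 2.99, 1.78, 2.83, 1.49 and 2.17. The groups were apart, and mares 1 and 3 changed least. The difference was 1.22 ± 0.26 (adjusted p = 0.00733), or 0.73 with brightness as a covariate (adjusted p = 0.401). Its second probe went the same way without passing. SLC16A1 was the only called gene among 14 for sugar, lactate and nutrient handling, beside 11.3% called among all named genes. The sugar carriers SLC2A4 (0.86), SLC2A5 (0.49) and SLC5A1 (-0.92) did not pass. FRZB, a secreted inhibitor of WNT signals, was higher by 0.85 ± 0.22 (adjusted p = 0.0242), the only called gene of 5 for WNT and hedgehog. The second probe of FRZB went the same way without passing.

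CXCL9, an interferon-induced chemokine for T cells, was higher by 1.37 ± 0.37 (adjusted p = 0.0298) in all 5 mares, and its second probe went the same way without passing. Of 9 tested chemokines and their receptors CXCL9 was the only higher one, CCL2 was the only lower one and 7 did not pass. The other 9 tested interferon-stimulated genes did not pass, among them CXCL10 at 0.45, OASL at 0.36 and MX1 at -0.56. LILRA, an immunoglobulin-like receptor of leukocytes, stood at a mean of -4.82 at day 0 and -7.08 at day 16, where 3 of 5 arrays were well above background. It entered the test through its day 0 arrays alone, the only called named gene to do so, so its difference of 2.26 ± 0.66 (adjusted p = 0.0442) is given as a description. EPO, erythropoietin, was higher by 1.56 ± 0.43 (adjusted p = 0.0345), and its other 4 probes went the same way with 1 called. The mean over the probes of EPO was not called. HTR1B, a serotonin receptor, was higher by 1.16 ± 0.33 (adjusted p = 0.0382), and NKAIN2, a membrane protein that binds the sodium pump, by 1.21 ± 0.26 (adjusted p = 0.00835).

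RPL5, a protein of the large ribosomal subunit, had day 0 levels of 7.10, 8.06, 7.51, 7.34 and 7.03 and day 16 levels of 7.05, 6.29, 6.30, 6.20 and 6.79. Mares 2, 3 and 4 rose by more than 1, and mares 1 and 5 by 0.05 and 0.24. The fitted difference of RPL5 was 0.88 ± 0.20 (adjusted p = 0.0106), and quantile normalization left 0.15 (adjusted p = 0.45). With brightness as a covariate RPL5 stood at 0.40 (adjusted p = 0.529) and EEF1A1, described next, at 0.37 (adjusted p = 0.567). After its values were seen, the other named genes for ribosomal proteins and elongation factors were looked up. EEF1A1 was called at 0.98 ± 0.22 (adjusted p = 0.0121) with -0.14, 2.01, 1.28, 1.46 and 0.32 in mares 1 to 5, RPLP2 at 0.72 ± 0.14 (adjusted p = 0.00563) and EEF1G at 0.76 ± 0.21 (adjusted p = 0.0318), and RPSA (0.80) and RPL15 (0.25) were not. After quantile normalization EEF1A1 stood at -0.01, RPLP2 at -0.03 and EEF1G at 0.66, and none of these was called. The log2 brightness difference of the array pairs was 0.83, -2.0, -1.12, -2.10 and -0.42 in mares 1 to 5, so that EEF1A1 and RPL5 had their largest differences in mares 2, 3 and 4, whose day 0 array was dimmer by the most.

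**Figure D5:**
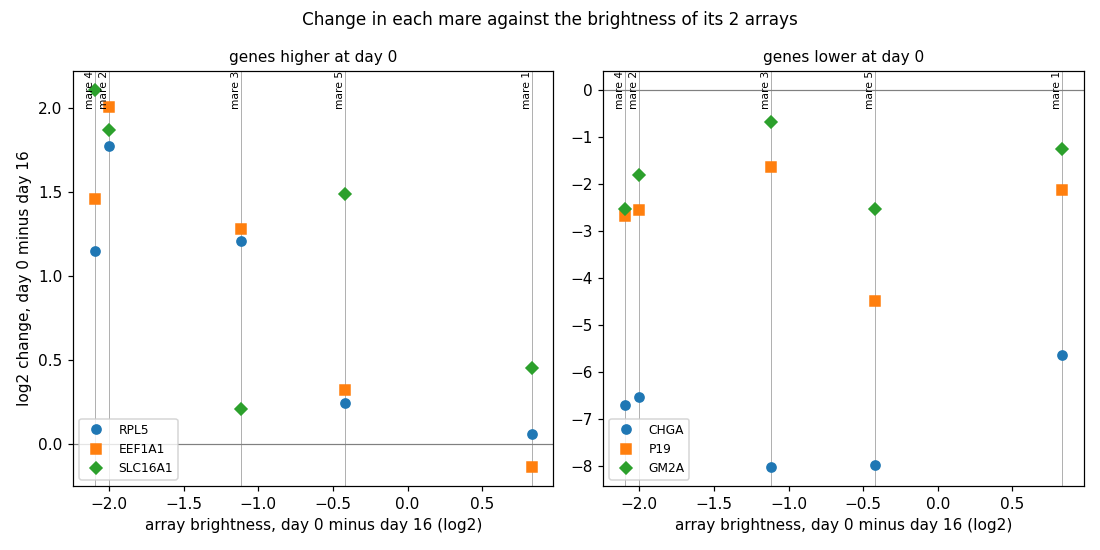
Log2 difference in each mare (day 0 minus day 16) against the log2 difference in 75th percentile between its 2 arrays, for 3 genes higher and 3 genes lower at day 0, 1 symbol for each mare and gene. EEF1A1 goes from 2.01 in mare 2 to -0.14 in mare 1, while CHGA is at -5.64 or below in every mare.

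HPGD, which inactivates prostaglandins, was the only called gene of 9 for prostaglandins and oxytocin, beside 11.3% called among all named genes. Its day 0 levels were -3.23, -2.68, -3.34, -3.23 and -2.64 and its day 16 levels -4.79, -4.27, -3.97, -3.85 and -3.81, without overlap, and the difference was 1.11 ± 0.30 (adjusted p = 0.0314). It was not called after quantile normalization (1.15, adjusted p = 0.0549) or without the mare block (1.11, adjusted p = 0.061). PTGFR, the receptor for prostaglandin F, differed by 1.22 ± 0.37 just short of the threshold (adjusted p = 0.0548), with 4 mares higher and -0.21 in mare 1. PTGES, which makes prostaglandin E, differed by -1.22 ± 0.37 (adjusted p = 0.0555), with 4 mares lower. Each passed without mare 1, at 1.57 (adjusted p = 0.016) and -1.65 (adjusted p = 0.0123), and in 6 of the 14 other settings. PTGS2, the inducible cyclooxygenase, differed by -0.42 ± 0.47 (adjusted p = 0.607), with 2 mares higher and 3 lower.

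The oestrogen receptor ESR1 had day 0 levels of 7.02, 7.47, 7.0, 6.86 and 7.25 and day 16 levels of 7.30, 6.50, 6.47, 5.53 and 6.54. Mare 1 was lower and the other mares higher at day 0, and the difference of 0.65 ± 0.26 did not pass (adjusted p = 0.141). None of its other 5 probes went the same way, and the mean over its probes was -0.09. Without mare 1 the difference was 0.89 (adjusted p = 0.0219), and after quantile normalization 0.03. Beside 11.3% called among all named genes, none of the 5 tested genes of oestrogen response was called, and their median was 0.25. FOS, an immediate early gene, had the largest difference among these, -1.96 with 4 mares lower (adjusted p = 0.149). IGF1, a growth factor of oestrogen action in the uterus, differed by 0.15 ± 0.40 (adjusted p = 0.846), and the mares ranged from -1.69 to 2.34. Of 4 tested genes of progesterone response, P19 was called, and FST (0.54), HSD11B2 (0.88) and AKR1C1 (-0.83) were not. The receptors for progesterone and oxytocin, PGR and OXTR, had no probe that could be named, and the named probe of CXCL8 was not bright enough to be tested. The chemokine CXCL6 differed by 1.36 ± 0.82 (adjusted p = 0.332), with -8.70 in mare 5 and -1.59 in mare 4 at day 16.

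None of 14 cytokines and their receptors was called, nor any of 4 growth factors and receptors, 5 genes of TGF-beta, activin and inhibin, 6 of ion, water and solute transport, 3 of antigen presentation, 3 of cell death and 2 of complement and coagulation. The share called over all named genes was 11.3%, so lists of this size would hold few calls or none. The single tested gene on the list of cell cycle and DNA replication, RNASEH2C, differed by 0.64 without passing. POLD3, a DNA polymerase subunit not on this list, was lower by -0.76 ± 0.19 in all 5 mares (adjusted p = 0.0224). At the threshold itself, H1-5, a linker histone, was the last gene to pass (1.77 ± 0.53, adjusted p = 0.0485) and MET, the receptor for hepatocyte growth factor, the first not to (-0.92 ± 0.28, adjusted p = 0.0513).

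Markers of the tissue were present: ESRP1, DCN, LUM and PECAM1 were well above background on all 5 arrays of both days, and DYDC1 on 3 at day 0 and 4 at day 16. The epithelial marker ESRP1 differed by 0.17, the ciliated cell marker DYDC1 by 0.57, the stromal markers DCN and LUM by 0.38 and 0.48 and the endothelial marker PECAM1 by -0.09, none of them called. TAGLN, a protein of smooth muscle and the only tested marker of it, was lower by -1.15 ± 0.34 (adjusted p = 0.0483). CD68, a macrophage protein, was higher by 1.04 ± 0.27 in 4 of 5 mares (adjusted p = 0.0278), while the other macrophage and dendritic cell markers CD14 (-0.54) and ITGAX (0.07) were not called. None of 4 markers of T and NK cells or 2 of mast cells and eosinophils was called. The red cell gene HBA2 differed by 0.78 with all 5 mares higher (adjusted p = 0.0533). B cells, plasma cells and neutrophils had no named marker, so whether MMP9 or LILRA moved with them was not tested.

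The 2 days also differed in how they sat in the cycle. Of the 34 higher genes 26 had their highest mean at day 0, and 19 had their lowest at day 16 and 9 at day 12. Of the 24 lower genes 15 had their lowest mean at day 0 and 7 at day 3, and 12 had their highest at day 16, 6 at day 12 and 5 at day 8. Because the genes were called on these same arrays, these counts describe them and are not a separate result. Among all 513 named genes day 0 held the highest mean in 27.5% and the lowest in 15.0%, and day 16 the highest in 19.1% and the lowest in 21.2%. The SD between mares of the median probe was 0.44 at day 0 and 0.51 at day 16, against 0.29 at day 8 and 0.35 at day 12.

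The mares took part unequally. The median difference of the 24 lower genes was -0.74, -1.54, -1.22, -2.15 and -1.09 in mares 1 to 5, and in mare 1 only 17 of the 24 were lower. For the 34 higher genes the medians were 0.62, 1.48, 0.94, 1.08 and 0.91, and 28 were higher in mare 1. The arrays lay on 7 slides, of which 3 held both days. Slide 4 held both arrays of mare 4 and slide 5 both of mare 5, while slide 6 held mare 1 at day 0 and mare 2 at day 16, which are different animals. The arrays were scanned on 4 dates. Both arrays of mares 4 and 5 shared a date, and the pairs of mares 1, 2 and 3 did not. No day 16 array shared a date with day 0 of mares 2 and 3. No day 0 array shared a date with day 16 of mares 1 and 3. The part of the scan date in the differences was not tested. CHGA differed by -6.71, -7.99 and -8.96 on slides 4, 5 and 6, P19 by -2.67, -4.50 and -4.19, and COL11A1 by 2.41, 6.12 and 0.86. These arrays also entered the calling. When the arrays of a slide were kept out of the calling, 76.5%, 89.4% and 95.5% of the probes called from the rest went the same way on that slide. Each slide gave 1 pair of arrays, so these shares are a description. The day 0 array was the dimmer of the pair on each of these slides, so day and brightness cannot be told apart there. For slide 6, day 16 of mare 1 and day 0 of mare 2 stayed in the calling.

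Probes without a gene name also held large differences. For each such target the probe with the largest absolute difference is given, whereas named genes are represented by their brightest probe. The sizes are therefore not comparable with those of named genes. The largest fall was that of the Ensembl transcript ENSECAT00000025397, -8.40 ± 1.03 (adjusted p = 0.000305), with 15 of 15 probes called, and 2 of 5 day 0 arrays well above background. Among unnamed targets the next was ENSECAT00000023902 at -6.76 ± 1.37 (adjusted p = 0.00601), with 5 of 5 probes called, and again 2 of 5 day 0 arrays well above background. The largest rise was that of the RefSeq transcript XM_001494551, 5.20 ± 0.77 (adjusted p = 0.0011), with both probes called and 2 of 5 day 16 arrays well above background. ENSECAT00000018446 followed at 4.61 ± 0.88 (adjusted p = 0.0046) on its only probe. For the targets with 2 of 5 arrays well above background on their lower day, the size of the difference is uncertain. Whether any unnamed target entered the test through its higher day alone was not checked, so these differences are given as a description.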

How the data were processed

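Messenger RNA of 25 endometrial biopsies (5 mares at each of 5 days) was measured on Agilent arrays of 43603 probes. The deposited spot intensities had their background removed on each array by Agilent Feature Extraction 10.7.3.1, per the file headers, which record no scaling between arrays. From them log2 signal minus the 75th percentile of each array was computed, outlier spots were left out, and spots of a probe were averaged. This scaling hides a change in total RNA. Tests covered probes well above background on 4 or more of the 5 arrays of any day. All 10 arrays compared had 70.3% to 86.2% of probes well above background and no saturated spots, and the number of arrays limits the precision.

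The model was fitted with limma 3.58.1 in R 4.3.3 to all 25 arrays, with day and mare as terms, and tests are two-sided. An equal replicate number is the same mare in the labels. What remained after removing the mean of each day correlated with a median of 0.25 over 50 pairs of arrays of the same mare, and -0.05 over 200 pairs of different mares, but -0.07 over the 5 pairs of day 0 and day 16. There was 1 biopsy for each mare and day. With the mare as a block, p-values measure how unevenly the mares changed between days, together with the spread of sampling. This spread was pooled over all 5 days. It includes days 8 and 12, where the median SD between mares (0.29 and 0.35) was below that of days 0 and 16 (0.44 and 0.51). Names came from RefSeq genes of the assembly TB-T2T by accession and covered 1307 probes of 620 genes. The array design predates it, so no positions are given.

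Genes named were the 12 largest rises and 12 largest falls with all 5 mares in the same direction, up to 4 called members of each of 26 lists, hormone response genes always, up to 2 unnamed targets each way, and the genes at the threshold. EEF1A1, EEF1G, RPLP2, RPSA, RPL15, CD68, CILP2, GCNT1, ABCE1, POLD3, ECATH-3 and list members that did not pass were added after their values were seen. The members and lists were chosen with earlier results of these data known. Tables were handled with pandas 2.3.3.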

Additional observations from a re-analysis of the deposited data

Results flagged for a closer look

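Single arrays stood far from the other 4 of their day in 6 of the 94 sets of 5 arrays examined for the named genes, where chance gives about 1 in 20. In mare 4 at day 0 the level of KLK1E2 was -6.18 against -5.26 to -4.89 in the others, and that of TAGLN was -1.06 against -1.88 to -1.76. In the same array PTGES was at -0.65 against 0.41 to 0.76, and MMP3 at -0.62 against -4.43 to -3.89. In mare 1 at day 16, H1-5 was at -5.48 against -8.00 to -7.31, and MET at 3.34 against 4.73 to 5.02.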

How the results depend on the processing

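The 2416 probes and 58 named genes called became 33 and 1 with array brightness as a covariate, 152 and 6 with the replicate block and slide (CHGA, GM2A, GPX3 and CILP2 of the 58), 35 and 1 in the 2 days alone with the replicate block, and 48 and 2 in the 2 days alone without it. With no replicate block in the fit of all days 1683 probes passed, 822 of them higher, and 39 of the 58 genes kept their call. Normexp gave 11256 and 187 at an offset of 50, and 4785 and 103 at an offset of 0, no filter on dim probes gave 5037 probes, 1 probe per target 1148, and a 2-fold minimum 1226 and 32. Leaving out a mare or an array gave 167 to 5134 probes and 3 to 94 named genes: of the mares, 4602, 167, 810, 1764 and 909 probes without mares 1 to 5. Slides 4 and 5 hold mares 4 and 5, so leaving them out gives the same 1764 and 909, and without slide 6, chosen after seeing the data, 660 passed. Single arrays whose loss moved either count by over 1.5 times were day 0 of mares 2, 3 and 5 and day 16 of mares 1, 2, 3 and 4. Directions turned for IGF1 with the brightness covariate (-0.43), ESR1 as the mean over probes (-0.094), EEF1A1 (-0.015), RPLP2 (-0.028) and GCNT1 (-0.056) after quantile normalization, and ABCE1 (0.28) with normexp at an offset of 50. With arrays left out, IGF1 ranged from -0.40 to 0.60 and PTGS2 from -0.84 to 0.035. In each case the cause was not tested.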
